A study of Mus musculus with 12 samples.

Results

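Cd28, Ctla4, Icos, Pdcd1, Tnfrsf4, Tnfrsf18, Havcr2 and Lag3 encode 8 costimulatory and inhibitory receptors of T cells, and open chromatin at them was compared across 12 ATAC-seq libraries of mouse CD4+ T cells. ATAC-seq cuts accessible DNA with a transposase, and a peak is a stretch where such cuts are enriched. Peaks were taken that overlapped a gene's body with 20 kb on each side. Peaks of the 12 lists were merged into 110642 regions of the genome, of which 88 lay at the 8 genes. The study compared mice lacking a super-enhancer of Ets1, the gene of an ETS transcription factor (strain C57BL/6J-Ets1-SE-KO, here KO), with C57BL/6J mice (WT). All cells came from spleen, where naive CD4+ T cells were isolated by negative selection. Th2 cells were grown from them for 6 days on plate-bound anti-CD3 with soluble anti-CD28, IL-4 and an antibody against interferon gamma. Th1 cells were grown for 6 days on plate-bound anti-CD3 with soluble anti-CD28, IL-12 and IL-2. The 6 groups were Th2 KO, Th2 WT, Th1 KO, Th1 WT, naive KO and naive WT, with 2 libraries each. Ages and the numbers of mice behind a library are not given in the labels. Per the labels, both naive libraries of a genotype repeat 1 biological sample, whereas the 2 polarized libraries of a group come from separate ones. The deletion is carried in the strain, so the labels name no cell type to which it is limited.

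T cells need a signal through the antigen receptor together with costimulation. CD28 gives that second signal on binding CD80 or CD86, and CTLA-4 binds the same ligands and restrains the response. ICOS, a relative of CD28, supports helper T cells after activation. OX40 (Tnfrsf4) and GITR (Tnfrsf18) are costimulatory members of the tumour necrosis factor receptor family. PD-1 (Pdcd1), TIM-3 (Havcr2) and LAG-3 (Lag3) are inhibitory receptors that appear on activated T cells.

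The lists held 34746 to 56357 peaks on the autosomes and X, and they gave no read counts, so the depth of each library is unknown. A region without a peak means only that none was called there. The Th2 lists were longer (51600 to 56357 peaks) than the Th1 lists (34746 to 46006). Both Th2 KO libraries carry Th1 in their titles and Th2 in their source name, and they were grouped by the source name. They are also numbered technical replicate 2 of biological replicates 1 and 2, whereas every other polarized library is technical replicate 1. The tests treat them as separate Th2 samples, which the labels leave uncertain. Genes of the Th2 marker list (Gata3, Il4, Il5, Il13) with a peak within 1 kb numbered 4 and 3 in Th2 KO, 3 and 3 in Th2 WT, 2 and 2 in Th1 KO, 2 and 1 in Th1 WT and 1 in each naive library. Those of the Th1 list (Ifng, Tbx21, Il12rb2, Cxcr3) numbered 2 and 1 in Th2 KO, 1 and 2 in Th2 WT, 3 and 3 in Th1 KO, 3 and 2 in Th1 WT, 3 and 4 in naive KO and 3 and 3 in naive WT libraries. Within the lists, Il5 had 1 peak in each Th2 library and 0 elsewhere, and Ifng had 0 in each Th2 library and 1 or 2 in each Th1 library. Gata3 had 5 peaks in each Th2 library, 4 in each Th1 library and 6 or 7 in each naive library. By presence of a peak, the genes other than Il5 and Ifng did not divide the Th2 from the Th1 libraries. Il4 had a peak in 3 of 4 Th1 libraries, Il13 in 1 Th2 library, and Gata3 and Il12rb2 in every library. Tbx21 had a peak in 1 Th2 KO library and not in 1 Th1 WT library, and Cxcr3 in 1 Th2 and 0 Th1 libraries. All 5 T cell markers had a peak in every library. Of 4 B cell markers, 4 had a peak in both naive KO libraries and 1 (Pax5) in each of the others. Of 3 red cell markers, 3 had a peak in both naive KO libraries, 2 in both naive WT libraries and 1 in each polarized library. Peaks on the Y chromosome numbered 10 and 9 in naive KO cells and 22 and 20 in naive WT cells.

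The promoter windows of 5 of the genes are held in RefSeq (GRCm38.p6), each 300 bases long and reaching just past the gene's start. The 4 printed here are shown because their peak calls differ most: Ctla4 was open in all 12 libraries, Pdcd1 in the 4 naive libraries, Havcr2 in all 8 polarized libraries and 1 naive library, and Tnfrsf18 in 1 library. They lie at chr1:60908775-60909074 (Ctla4, plus strand), chr1:94052504-94052803 (Pdcd1, minus strand), chr11:46454681-46454980 (Havcr2, plus strand) and chr4:156026072-156026371 (Tnfrsf18, plus strand). Capitals mark matches, on either strand, to short motifs of 7 factor families or elements. The ETS family motif was searched as AGGAAG and was held by 35.4% of 32851 RefSeq promoters of this length. NFAT was searched as GGAAAA, held by 23.4% of those promoters, and RUNX as TGTGGT, held by 16.8%. For AP-1 the letters were TGANTCA, found in 7.81% of promoters, and for GATA factors AGATAA, found in 11.2%. The T-box motif was searched as AGGTGTGA, in 1.28% of promoters, and the TATA box as TATAAA, in 13.6% of promoters.
Ctla4: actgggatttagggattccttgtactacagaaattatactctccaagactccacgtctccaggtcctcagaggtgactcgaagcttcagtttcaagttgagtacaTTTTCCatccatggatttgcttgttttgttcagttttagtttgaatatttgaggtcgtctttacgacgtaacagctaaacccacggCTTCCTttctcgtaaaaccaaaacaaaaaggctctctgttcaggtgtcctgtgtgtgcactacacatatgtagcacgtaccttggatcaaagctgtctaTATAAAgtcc
Pdcd1: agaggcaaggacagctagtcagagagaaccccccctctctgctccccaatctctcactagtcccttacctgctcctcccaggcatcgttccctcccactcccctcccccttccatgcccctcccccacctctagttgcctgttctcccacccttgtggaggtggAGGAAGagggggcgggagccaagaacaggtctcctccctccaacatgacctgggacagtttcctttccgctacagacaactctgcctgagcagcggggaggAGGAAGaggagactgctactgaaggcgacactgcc
Havcr2: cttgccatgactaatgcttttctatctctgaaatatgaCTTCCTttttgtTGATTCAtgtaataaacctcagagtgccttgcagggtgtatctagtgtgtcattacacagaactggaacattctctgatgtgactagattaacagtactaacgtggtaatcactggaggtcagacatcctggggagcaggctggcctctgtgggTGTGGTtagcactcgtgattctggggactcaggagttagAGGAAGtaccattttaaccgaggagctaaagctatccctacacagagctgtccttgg
Tnfrsf18: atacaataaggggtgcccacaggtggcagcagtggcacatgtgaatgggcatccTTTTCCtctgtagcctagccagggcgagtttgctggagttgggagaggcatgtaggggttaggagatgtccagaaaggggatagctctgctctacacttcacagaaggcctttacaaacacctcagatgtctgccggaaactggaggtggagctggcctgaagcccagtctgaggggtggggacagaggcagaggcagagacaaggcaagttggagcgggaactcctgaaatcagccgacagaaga
The Ctla4 window held 1 ETS, 1 NFAT and 1 TATA match. The Pdcd1 window held 2 ETS matches, and the Havcr2 window 2 ETS matches with 1 AP-1 and 1 RUNX match. The Tnfrsf18 window held 1 NFAT match. The Tnfrsf4 window (chr4:156013445-156013744, plus strand) held none of the 7 motifs. No motif overlapped another, and these matches are letters in a window, not binding sites. The GC content was 42% at Ctla4, 60.7% at Pdcd1, 45.3% at Havcr2 and 55.3% at Tnfrsf18, against a median of 52.7% over all promoters.

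Cd28 (gene 12487, 60746388 to 60773359), Ctla4 (gene 12477, 60909025 to 60915832) and Icos (gene 54167, 60960773 to 61000322) follow each other on chromosome 1 of GRCm38, 135.7 and 44.9 kb apart. Pdcd1 (gene 18566, 94038305 to 94052553) lies farther along the same chromosome. Tnfrsf4 (gene 22163, 156013595 to 156016613) and Tnfrsf18 (gene 21936, 156026322 to 156028894) are 9.7 kb apart on chromosome 4. Havcr2 (gene 171285) spans 46454931 to 46481255 on chromosome 11 and Lag3 (gene 16768) 124904359 to 124912434 on chromosome 6. Cd28 and Lag3 had 18 regions each, Icos 15, Tnfrsf4 11, Ctla4 10, Havcr2 9 and Pdcd1 7. All 9 regions of Tnfrsf18 were also regions of Tnfrsf4, so these 2 genes share nearly all their data. Windows also take in other genes: Cd4, Ptms and Mlf2 at Lag3, Sdf4 and Ttll10 at Tnfrsf4 and Tnfrsf18, Med7 at Havcr2, and Neu4 at Pdcd1.

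Of the 88 regions, 16 had a peak in all 12 libraries, or 18.2%, against 13.2% of all regions. They were spread over every gene: 3 at Cd28, 2 at Ctla4, 1 at Icos, 1 at Pdcd1, 3 at Tnfrsf4 (2 of them also at Tnfrsf18), 3 at Havcr2 and 3 at Lag3. Their median width was 1034 bp, against 978 bp for all regions found in every library. A further 10 regions had a peak in 1 library. The share of the 88 regions with a peak was 44.3% to 61.4% per library, against 30.5% to 49.4% of all regions, so receptor regions were open more often than the average region.

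**Figure D1:**
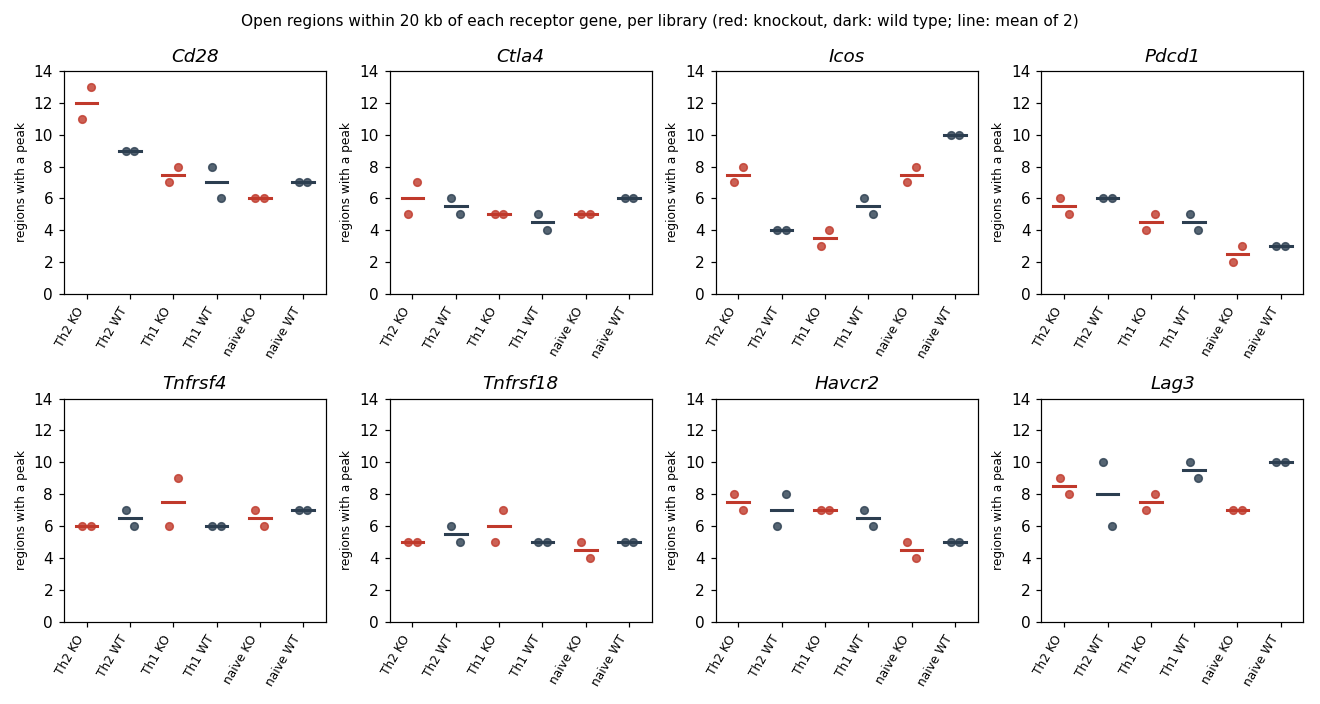
Number of regions with a peak (vertical axis) within 20 kb of each receptor gene, for each of the 12 libraries (points; red KO, dark WT) with the mean of the 2 libraries of a group (line). Cd28 has 9 to 13 regions in Th2 cells and 6 to 8 in Th1 cells, and Icos has 7 and 8 in Th2 KO cells against 4 and 4 in Th2 WT cells.

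Polarized and naive cells differed at these genes in both directions: some elements were open in cultured cells and others in naive cells, often in the same gene. Strength was compared as a percentile, the rank of a peak's −log10 q within its own list, with every list shortened to its 34746 strongest peaks so that ranks have 1 denominator. Of 79 receptor regions left, 11 had a higher percentile in every polarized library than in any naive library, or 13.9%, against 8.23% of all regions. In the opposite direction 16 of 79 had a lower percentile in every polarized library, or 20.3%, against 11.9% of all regions. These shares carry no test, since each genotype has 1 naive sample, measured in 2 libraries. In the unshortened lists, 8 of the 30 receptor regions open in all 8 polarized libraries had no naive peak, or 26.7%, against 27.6% of all such regions. Likewise 10 of the 36 receptor regions open in all 4 naive libraries had no polarized peak, or 27.8%, against 18.6%. With shortened lists these counts were 8 of 23 (34.8%, against 30.9% of all such regions) and 5 of 27 (18.5%, against 20.6%), and 5 regions of each kind were found both ways. Some markers of other cells differed with this contrast. Of 4 CD8 T and NK cell genes 0 or 1 had a peak in polarized libraries and 3, 2, 3 and 2 in naive libraries. Cd8a had 0 peaks in all 8 polarized libraries and 1 in each naive one. Cd8b1 had a peak in each naive library and also in Th1 WT replicate 1 and Th2 WT replicate 1. Klrb1c had a peak in replicate 1 of naive KO and of naive WT and in both Th2 KO libraries, and Ncr1 had 0 throughout. Of 4 myeloid genes 1 or 2 had a peak in polarized libraries and 2 or 3 in naive ones, which overlap, with Lyz2 at 0 throughout. Their part in the contrast was not tested. Fewer cells with an open region and a weaker opening in each cell cannot be told apart in bulk libraries.

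Cd28 held naive-only and polarized-only regions close to each other inside the gene, and a link between them was not tested. At 60758107 to 60758730 polarized cells had no peak, whereas naive KO libraries had peaks at percentiles 94.0 and 93.7 of their full lists and naive WT libraries at 98.2 and 98.5. A short way along, at 60759562 to 60760326, the 8 polarized libraries had peaks at 56.9 to 84.0 (median 74.6) and the 4 naive libraries had none. Naive-only regions also lay at 60755716 to 60756276 inside Cd28 and at 60781596 to 60782112, 8.2 kb beyond the gene, with naive percentiles of 67.6 to 84.9 and 74.8 to 93.2. The region over the lower end of the gene, 60745728 to 60746677, was open in all 12 libraries. There the shortened-list percentiles were 0 (no peak left) to 78.3 in polarized cells (median 39) and 89.5 to 97.6 in naive cells. By contrast an intragenic region at 60764902 to 60765483 stood at 66.3 to 91 in polarized cells (median 84.3) and at most 41.8 in naive cells.

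Ctla4 showed the same mix. Its promoter region, 60908689 to 60909417, was open in every library, with shortened-list percentiles of 64.7 to 87.1 in polarized cells (median 82.1) and 91.4 to 97.5 in naive cells. Polarized-only regions lay inside the gene at 60913299 to 60913769 (50.1 to 92 of the full lists, median 80.2) and 14.4 kb beyond it at 60930267 to 60931115 (58.3 to 92.9, median 89.3). The second of these lies in the long non-coding RNA gene Gm34649. Naive cells alone had peaks at 60910842 to 60911170 inside the gene, at percentiles of 18.6 to 41, and at 60916202 to 60916936 just beyond it, at 58.7 to 85.9.

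At Icos the strongest elements ranked higher in naive cells. In shortened lists, 5 of its 15 regions had lower percentiles in every polarized library, where 11.9% of all regions did, and none had higher ones. Cd28 had as many of the lower kind, but it also had higher ones. The region at 60940947 to 60941591, 19.2 kb from the gene and in Gm34649, had a peak in 2 of the 8 polarized libraries. Its full-list percentiles were 92.7 and 91.3 in naive KO and 92.9 and 96.1 in naive WT libraries. An intragenic region at 60977378 to 60978188, the only one open in all 12 libraries, stood at 15 to 74.4 in polarized cells and 90.3 to 97 in naive cells of the shortened lists. Another at 60990118 to 60991029 stood at 0 to 19.1 in polarized cells and 65.7 to 73.5 in naive cells. The single polarized-only region of Icos, 60975046 to 60975638, was weak, with full-list percentiles of 11.5 to 51.2. Naive-only regions lay at 60974148 to 60974595 in the gene (20.1 to 72.5) and 61016586 to 61017030 beyond it (22.9 to 35).

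**Figure D2:**
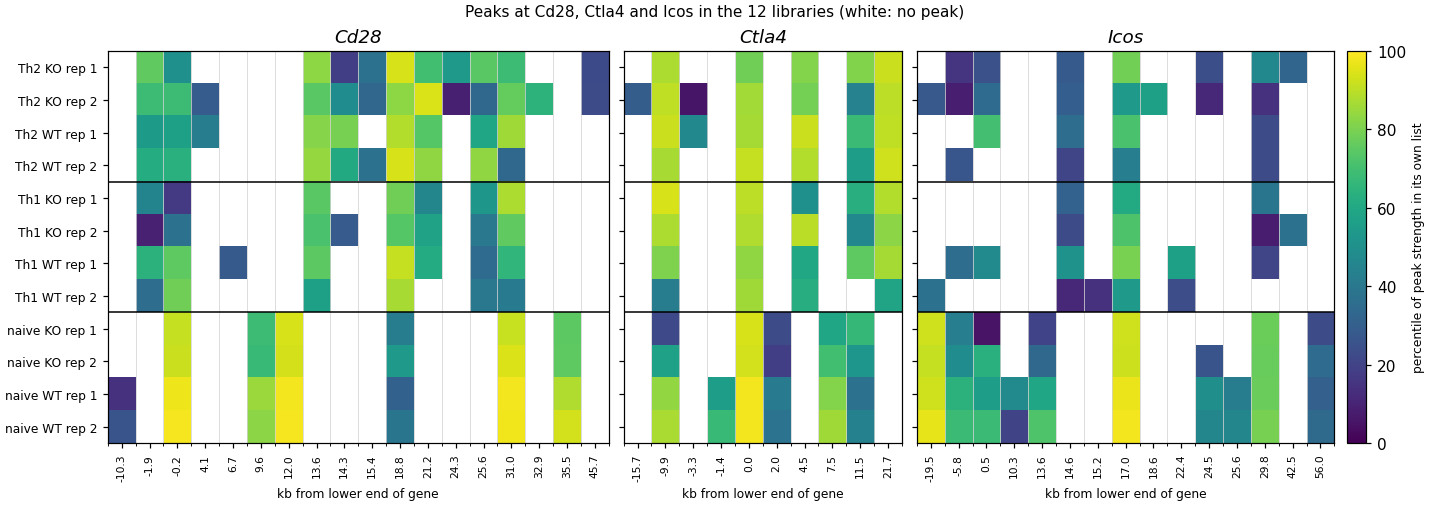
Percentile of peak strength in each library's own full list (colour, white for no peak) for the regions of Cd28, Ctla4 and Icos, in order along chromosome 1 with their distance in kb from the lower end of the gene (horizontal axis) and the 12 libraries in rows. Columns filled only in the upper 8 rows are polarized-only and columns filled only in the lower 4 rows are naive-only, as at 60758107 to 60758730 of Cd28.

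Havcr2 went the other way from Icos: 4 of its regions had higher shortened-list percentiles in every polarized library and none had lower ones. An intragenic region, 46473987 to 46474781, stood at 87.8 to 98.3 of the full lists in polarized cells (median 95.8) and had no naive peak. The neighbouring region at 46466738 to 46467386 had peaks in all 12 libraries, at shortened-list percentiles of 86.9 to 97.6 in polarized cells (median 93) and 9.1 to 26.2 in naive cells. The Havcr2 promoter region, 46454546 to 46455128, had full-list percentiles of 94.6 and 82.6 in Th2 KO, 74.8 and 92.7 in Th2 WT, 71.4 and 69.1 in Th1 KO and 73.9 and 58.6 in Th1 WT libraries. In naive cells it had no peak in both KO libraries and 1 WT library, and a peak at 26.7 in the other WT library. The single naive-only region, 46443190 to 46443541, was weak, at 14.7 and 1.32 in naive KO and 48 and 29.9 in naive WT libraries.

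Pdcd1 had no region whose shortened-list percentiles separated polarized from naive cells, so its contrasts are those of the full lists. The region 94052181 to 94052757, which overlaps the printed promoter, had no peak in polarized cells, and stood at 21 and 20.1 in naive KO and 49.6 and 57.7 in naive WT libraries, so it was of low to middle rank there. In shortened lists it kept a peak in 1 naive KO library (6.65) and both naive WT libraries (23.8 and 31.6). Inside the gene, 3 regions had peaks in most polarized libraries and in no naive library. At 94042091 to 94042778 a peak was called in 6 of 8 polarized libraries, and at 94047830 to 94048504 and 94050922 to 94051527 in 7 of 8 each. In shortened lists these became 2, 6 and 7 of 8. A region 2.1 kb from the gene, 94034809 to 94036203, was among the strongest peaks everywhere, at 94.1 to 98.9 in polarized cells and 96.4 to 98.5 in naive cells.

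In shortened lists Lag3 had 2 regions with higher and 2 with lower percentiles in every polarized library. Intragenic region 124907726 to 124908239 stood at 30.2 to 86.1 of the full lists in polarized cells (median 59.6), and its only naive peak, in 1 WT library, stood at 2.33. Region 124900907 to 124901615, 2.7 kb from the gene, stood at 32 to 75 in polarized cells (median 66.6), while naive KO libraries had no peak and naive WT libraries had peaks at 8.81 and 1.48. On the lower side were a region in the body of Cd4, 124885097 to 124886046 (17.4 to 59.7 in polarized and 79.3 to 94.2 in naive cells, shortened lists), and 124903531 to 124903994. Naive cells alone had a peak at 124900370 to 124900800, 3.6 kb from the gene, at 59.3 and 20.4 in KO and 64.2 and 70.8 in WT libraries.

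At Tnfrsf4 and Tnfrsf18 strong regions that separated polarized from naive cells lay in the neighbouring gene Sdf4. There 156007905 to 156009075, 4.5 kb from Tnfrsf4, stood at 89.6 to 95.5 in polarized cells (median 93) and had no naive peak. Also in Sdf4, but outside the window of Tnfrsf18, 156004032 to 156004591 had a peak in 1 polarized library, a Th1 KO library at 43.3, and stood at 79.2 and 92.1 in naive KO and 93 and 95.6 in naive WT libraries. Outside Sdf4, 4.5 kb from Tnfrsf18, region 156033423 to 156033931 also ranked lower in every polarized library. Its shortened-list percentiles were 0 to 12.1 in polarized cells and 37.4 to 60.1 in naive cells. The Tnfrsf4 promoter region, 156013420 to 156014218, was open in 11 of 12 libraries at 11.7 to 72.5. The Tnfrsf18 promoter had a single peak, at percentile 4.46 in a naive WT library. Peaks in this window cannot be assigned to Tnfrsf4, Tnfrsf18 or Sdf4 from the lists.

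**Figure D3:**
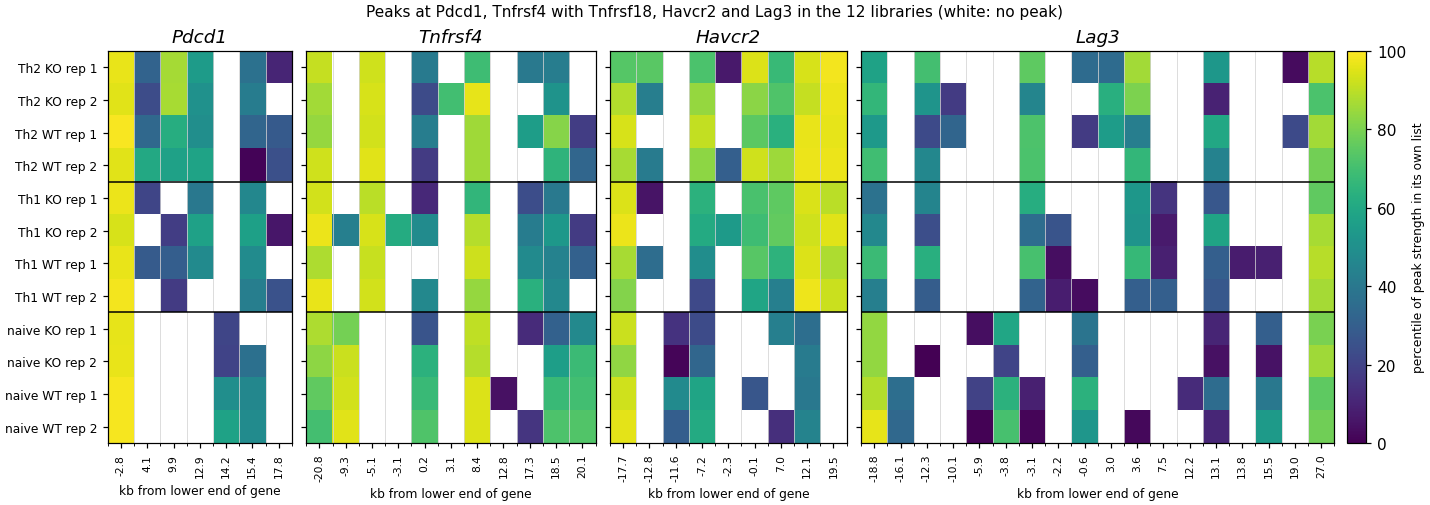
Percentile of peak strength in each library's own full list (colour, white for no peak) for the regions of Pdcd1, Tnfrsf4, Havcr2 and Lag3, in order along each chromosome with their distance in kb from the lower end of the gene, and the 12 libraries in rows. Havcr2 has a column of 87.8 to 98.3 in all 8 polarized libraries that is empty in the 4 naive libraries.

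Th2 and Th1 cells were compared by the number of regions with a peak, with an exact two-sided permutation test over the 70 splits of 8 libraries, run on 17762 protein-coding genes with Benjamini-Hochberg adjustment. Cd28 had 11 and 13 regions in Th2 KO, 9 and 9 in Th2 WT, 7 and 8 in Th1 KO and 8 and 6 in Th1 WT libraries. Th2 cells thus averaged 10.5 ± 1.91 and Th1 cells 7.25 ± 0.957 (SD, n = 4 each), without overlap, a difference of 3.25 (exact permutation p = 0.0286, the smallest possible; adjusted p = 0.297). All Th2 counts exceeded all Th1 counts at 9.24% of all genes and lay below them at 0.383%, which is the background for Cd28. In lists of equal length Cd28 had 8, 8, 9 and 9 regions in Th2 cells and 6, 7, 8 and 6 in Th1 cells, so the groups overlapped and the difference was 1.75 (exact permutation p = 0.0857). In WT cells alone it was 2.00. Pdcd1 had 6 and 5 regions in Th2 KO, 6 and 6 in Th2 WT, 4 and 5 in Th1 KO and 5 and 4 in Th1 WT libraries, a difference of 1.25 that overlapped (exact permutation p = 0.0857, adjusted p = 0.524) and was −0.25 with equal lists. The other 6 genes differed by −0.50 to 1.25 regions with unadjusted exact permutation p of 0.286 to 1. No receptor gene passed an adjusted p of 0.05, nor did any of the 17762 genes. Unadjusted, 1 receptor gene and 1710 of all genes were below 0.05. Even the smallest possible exact permutation p, 0.0286, became 0.297 after adjustment, so no gene could pass here whatever its separation. The median difference over the 8 genes was 0.75, against 0.50 over all genes.

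In lists of equal length, few single elements separated Th2 from Th1 cells by strength. Their shares lay slightly below those over all regions, but on counts of only 3 and 2 regions, and this difference was not tested. The Pdcd1 region 94047830 to 94048504 stood at 86.6 and 87.1 of the full lists in Th2 KO, 62.2 and 57.3 in Th2 WT, none and 18 in Th1 KO and 29.9 and 17.2 in Th1 WT libraries. With equal lists the ranges were 36.6 to 80.5 in Th2 cells and 0 to 17.2 in Th1 cells. Havcr2 had 2 such regions. At 46446832 to 46448716, 6.2 kb from the gene, equal-list percentiles were 53.8 to 85.6 in Th2 cells and 22.2 to 52.5 in Th1 cells, and at the polarized-only region 46473987 to 46474781 they were 94.1 to 97.3 and 84.4 to 94.1. These 3 of 63 receptor regions (4.76%, against 6.57% of all regions) were higher in every Th2 library. Lower in every Th2 library were 2 of 63 (3.17%, against 5.72%): 94053413 to 94054011, 0.9 kb from Pdcd1, and the weak polarized-only region of Icos. At the Icos region the shortening left no Th2 peak. In the full lists it stood at 20.9 to 35.8 in Th2 and 11.5 to 51.2 in Th1 cells, which overlap. By presence, WT cells had 1 Th2-only region among 40 open in Th2 (2.50%, against 19.9% of all regions), 60760576 to 60760834 in Cd28, where the Th2 WT percentiles were 79.4 and 60.7. They had 3 Th1-only regions among 35 (8.57%, against 5.85%), 1 at Icos and 2 at Lag3. KO cells had 7 Th2-only regions among 46 (15.2%, against 16.2%), of which 3 were at Cd28, 3 at Icos and 1 at Lag3, and 1 Th1-only region among 37 (2.70%, against 6.82%), at Lag3. None of 38 regions was Th2-only in both genotypes, where 7.47% of all regions were. The 1 of 32 that was Th1-only in both (3.12%, against 1.86%), 124911606 to 124912079 in Lag3, was weak, at 15.2 and 7.42 in Th1 KO and 8.79 and 30.1 in Th1 WT libraries. With equal lists KO cells had 2 of 31 Th2-only (6.45%, against 12.6%) and 1 of 31 Th1-only regions (3.23%, against 11.1%), none of them among those called in the full lists. WT cells then had 1 of 32 Th2-only (3.12%, against 13.8%), the same Cd28 region, and 3 of 33 Th1-only regions (9.09%, against 11.7%), 1 of them among the earlier 3. In both genotypes 0 of 29 were Th2-only (against 5.32%) and 1 of 28 Th1-only (3.57%, against 3.50%), a region other than the one in the full lists. Leaving out 1 library moved the WT Th2-only count to as many as 7 and the KO one to 9 to 15. Leaving a library out loosens the rule for a call, so such counts can only stay or rise. They are given without a share over all regions and say nothing about the receptor genes in particular.

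Loss of the Ets1 super-enhancer was compared within each cell type by presence: a region was called lost with a peak in both WT and neither KO library, and gained the other way. A comparison of 2 libraries with 2 allows no exact p below 0.333, so these calls carry no test. In naive cells 6 of 45 receptor regions were lost (13.3%, against 20.9% of all regions) and 0 of 36 gained (against 8.67%). The lost regions were 60735896 to 60736290 near Cd28, 60907468 to 60907856 near Ctla4, 60970907 to 60971231 and 60986160 to 60986502 in Icos, and 124888069 to 124888362 and 124900907 to 124901615 near Lag3. The strongest of them in naive WT cells was that near Ctla4, at percentiles 55.5 and 67.3. Naive KO cells had 7 and 8 regions at Icos against 10 and 10 in naive WT cells, and 7 and 7 at Lag3 against 10 and 10. The naive KO lists were shorter (41075 and 43823 peaks) than the naive WT lists (52571 and 56195), they had the B cell, red cell and Y chromosome differences given above, and the part of these in the lost regions was not tested. In lists of equal length 2 of 35 regions were lost (5.71%, against 12.5%) and 1 of 29 gained (3.45%, against 13%).

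In polarized cells few receptor regions separated the genotypes. Th2 KO cells lost 1 of 40 (2.50%, against 3.83% of all regions), at 156033423 to 156033931 near Tnfrsf18, and gained 3 of 46 (6.52%, against 4.56%). The gained regions were 60770608 to 60770861 in Cd28 (54 and 8.89), 60791866 to 60792294 beyond Cd28 (22.4 and 22.9) and 60984977 to 60985479 in Icos (24.2 and 11.7), all of low or middle rank. Th1 KO cells lost 1 of 35 (2.86%, against 3.96%), at 60983002 to 60983330 in Icos, and gained 0 of 37 (against 8.76%). With equal lists Th2 KO cells lost 0 of 32 (against 4.58%) and gained 0 of 31 (against 4.57%), and Th1 KO cells lost 2 of 33 (6.06%, against 6.59%) and gained 0 of 31 (against 6.35%). By counts over both polarized types, with genotype exchanged within cell type in 36 ways, KO minus WT ranged from −0.75 regions at Lag3 to 1.75 at Cd28. Cd28 averaged 9.75 regions in KO and 8 in WT cells (exact permutation p = 0.167, adjusted p = 1), and the difference turned to −0.75 with equal lists. No receptor gene was below 0.05 unadjusted, which this design cannot reach, its smallest p being 0.0556. The median over the 8 genes was 0.50, against 0.25 over all genes.

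In the full lists Icos counts differed by genotype in opposite directions in the cell types. It had 7 and 8 regions in Th2 KO against 4 and 4 in Th2 WT cells, but 3 and 4 in Th1 KO against 6 and 5 in Th1 WT cells. The KO-minus-WT difference was 3.50 in Th2 and −2.00 in Th1 cells, and their difference of 5.50 had an exact permutation p of 0.0556, the smallest possible, and an adjusted p of 1. That opposite separation was seen at 0.214% of the 17762 genes. Most of the Icos regions behind it were of low rank: those with a peak in both Th2 KO libraries and not in both Th2 WT libraries, 60954758 to 60955236, 60961052 to 60961464 and 60984977 to 60985479, stood at 14.9 and 8.41, 24.8 and 35.1, and 24.2 and 11.7 in Th2 KO cells. Region 60954758 to 60955236 also had a peak in Th2 WT replicate 2, at 26.9. Region 60961052 to 60961464 also had a peak in Th2 WT replicate 1, at 70. Both WT peaks ranked above the KO peaks of the same region. In lists of equal length Icos had 2 and 3 regions in Th2 KO against 2 and 1 in Th2 WT cells, which overlap, so it was not among the 0.327% of all genes that then had the opposite separation, and the difference was 3.00 (exact permutation p = 0.111). Both Th2 KO libraries are those with the conflicting labels.

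**Figure D4:**
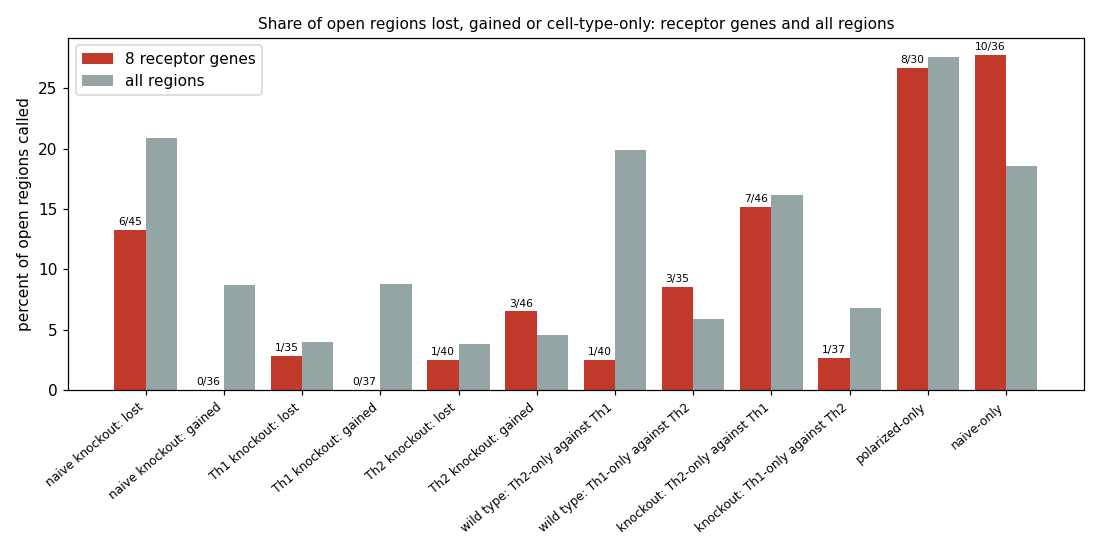
Percent of open regions called lost, gained or found in 1 cell state only (vertical axis, from 0) for the 8 receptor genes (red, with counts above the bars) and for all regions (grey), in the full lists. The receptor bars lie below the grey ones in 9 of 12 calls; naive-only regions are 27.8% against 18.6% here, but 18.5% against 20.6% in lists of equal length.

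Other genes of the pathway were 20 receptors, 12 ligands and 7 signalling genes, all 39 with regions in their windows. Of these, 5 had more regions in every Th2 than in every Th1 library and 0 had fewer, where 9.24% and 0.383% of all genes did. The 5 were Cd27, Tigit and Cd226, which encode receptors, and Tnfsf4 and Tnfsf18, the genes of the ligands of OX40 and GITR. None passed an adjusted p of 0.05, which no gene could reach in the full lists. Counts without overlap always give the smallest possible p, so the p-values of these 5 follow from how they were picked. With lists of equal length Tigit and Tnfsf4 were left and 0 had fewer, where 2.41% and 1.85% of all genes did. Tnfsf4 had 7, 7, 8 and 7 regions in Th2 cells and 5, 5, 4 and 5 in Th1 cells, or 7.25 ± 0.5 and 4.75 ± 0.5 (SD, n = 4 each; exact permutation p = 0.0286, adjusted p = 0.297). Tigit, which encodes an inhibitory receptor, had 10, 8, 7 and 8 regions in Th2 cells and 2, 5, 5 and 3 in Th1 cells, or 8.25 ± 1.26 and 3.75 ± 1.5 (SD, n = 4 each; exact permutation p = 0.0286, adjusted p = 0.297). Naive KO cells lost 50 of 277 regions of the 39 genes (18.1%, against 20.9% of all regions) and gained 10 of 203 (4.93%, against 8.67%). The polarized-only regions were 26 of 113 (23%, against 27.6%) and the naive-only ones 43 of 185 (23.2%, against 18.6%).

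The genes whose summed percentiles followed each receptor gene most closely over the 12 libraries, among genes on other chromosomes with at least 5 regions, were found by Pearson's r in lists of equal length, given without a test since libraries share length and cell state. They were Dtnb (0.920) and Inpp5a (0.901) for Cd28, Bcl2l15 (0.938) and Xrcc4 (0.923) for Ctla4, and Cnot8 (0.989) and B4galnt3 (0.987) for Icos. For Pdcd1 they were Mmaa (0.928) and Dnajb14 (0.922), and for Havcr2 Gm17359 and Kcnh5 (0.992 each). Tnfrsf4 was followed by Alpk1 (0.896) and Dolk (0.850), Tnfrsf18 by S100a11 (0.860) and Alpk1 (0.831), and Lag3 by Iqch (0.910) and Cdon (0.909).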

How the data were processed

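Peak lists of 12 ATAC-seq libraries were analysed. Reads were mapped to GRCm38 with BWA, handled with Picard and called as peaks with MACS2 by the authors, per the submitters' processing notes, with no version given in the sources used here. For each peak the deposited list gives a score, a fold enrichment, a −log10 p and a −log10 q, made by the authors' peak caller in each library alone. No reads or counts are given, so depth is unknown and intervals were not computed. Peaks on chromosomes 1 to 19 and X that overlapped by at least 1 bp were merged over the libraries into regions; percentiles are ranks of −log10 q. Windows are gene bodies with 20 kb on each side (RefSeq, GRCm38.p6). Counts were compared with exact two-sided permutation tests over libraries and Benjamini-Hochberg adjustment over 17762 genes (scipy 1.17.1 under Python 3.11.15, with pandas 2.3.3 and numpy 2.4.6). The permutation test was checked on simulated gene counts, drawn without differences in list length between groups. Alternatives were lists of equal length (34746 peaks), ranking by fold, a −log10 q of at least 2, 50% cover, windows of 5 and 50 kb, bases covered, a replicate block, WT cells alone and leaving out libraries. Named were all 8 genes, the pathway genes that separated Th2 from Th1 libraries and the 2 genes most alike in pattern. The genes and lists were chosen with earlier results of these data known.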

Additional observations from a re-analysis of the deposited data

Results flagged for a closer look

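Icos stood out because its genotype difference ran in opposite directions in the cell types: KO minus WT was 3.50 regions in Th2, −2.00 in Th1 and −2.50 in naive cells, with both KO libraries on the same side of both WT libraries each time in the full lists. The Th2 difference less the Th1 difference was 5.50 regions (exact permutation p = 0.0556, the smallest possible, adjusted p = 1). The Th2 difference less the naive one was 6.00 regions and was not tested. Cd28 was set apart in the same way, with 3.00 more regions in Th2 KO than in Th2 WT cells and 1.00 fewer in naive KO than in naive WT cells, so that the Th2 difference less the naive one was 4.00 regions, also not tested. In lists of equal length the Cd28 pattern was not left: KO minus WT at Cd28 was −1.00 in Th2 and 0.50 in naive cells, so that their difference turned to −1.50. At Icos the signs stayed, with 1.00 in Th2, −2.00 in Th1 and −1.50 in naive cells. There the Th2 and the naive genotypes overlapped, whereas the Th1 genotypes did not. The Icos difference in Th2 cells less that in Th1 cells was 3.00, and less that in naive cells 2.50. Both genes involve the Th2 KO libraries, whose labels conflict, and the naive KO libraries, which had peaks at all 4 B cell markers. The part of either in these differences was not tested.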

How the results depend on the processing

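No receptor gene passed an adjusted p of 0.05 for Th2 against Th1 under the alternatives run. In the full lists the smallest possible exact permutation p, 0.0286, adjusted to 0.297, so no gene could pass there and the absence says little about single genes. For KO against WT, and under the replicate block, the smallest possible p lies above 0.05, so no call could be made or lost. With lists of equal length, naive KO cells lost 2 regions and gained 1, Th1 KO cells lost 2, Th2 KO cells lost 0 and gained 0, KO cells had 2 Th2-only regions and 5 regions were naive-only. Ranking those lists by fold gave 0 lost and 2 gained in naive KO, 2 lost in Th1 KO, 0 lost and 1 gained in Th2 KO, 0 Th2-only and 1 Th1-only in WT, 2 Th2-only and 0 Th1-only in KO, 3 polarized-only, 6 naive-only and 0 Th1-only in both genotypes. Peaks covering 50% of a region gave 2 lost in Th1 KO, 2 lost in Th2 KO, 3 Th2-only in WT, 2 Th1-only in KO, and 1 Th2-only and 0 Th1-only in both. A −log10 q of at least 2 gave 2 lost and 1 gained in Th2 KO, 1 Th1-only in WT, 0 Th1-only in KO and 0 Th1-only in both. A window of 50 kb gave 13 lost and 1 gained in naive KO, 3 lost in Th1 KO, 2 lost and 5 gained in Th2 KO, 4 Th2-only and 5 Th1-only in WT, 12 Th2-only and 2 Th1-only in KO, 13 polarized-only, 16 naive-only, and 1 Th2-only and 2 Th1-only in both. Except for lists of equal length, the counts under these settings are given without a share over all regions. They describe the setting and not a trait of the receptor genes. Leaving out both naive KO libraries, chosen after seeing the data, gave 16 naive-only and 9 polarized-only regions. Leaving out both Th2 KO libraries gave 10 and 8. A call needs a peak in every library of 1 side and in none of the other. Leaving libraries out can therefore only keep or raise these counts. Whether anything else lies behind the rise was not tested.

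Differences that passed no test turned in sign under some settings. Th2 minus Th1 became −2.00 at Icos and −0.25 at Pdcd1 with equal lists, −1.50 and −0.25 ranked by fold, −0.25 at Havcr2 and 1.00 at Lag3 with 50% cover, and 1.00 at Lag3 with the q limit. It became −1.50 at Icos, 0.50 at Tnfrsf4 and 0.50 at Tnfrsf18 in WT cells alone, 0.25 at Tnfrsf4 with 5 kb, and 0.50 at Tnfrsf4, 0.75 at Tnfrsf18 and 1.25 at Lag3 with 50 kb. KO minus WT became −0.75 at Cd28, −0.50 at Icos and −0.25 at Tnfrsf18 with equal lists, and −0.75, −1.00 and −1.25 ranked by fold, with −1.25 at Tnfrsf4. It became −0.75 at Tnfrsf4 and −1.00 at Tnfrsf18 with 50% cover, −0.25 at Icos with the q limit, −0.50 at Tnfrsf18 with 5 kb and −0.25 with 50 kb. Counted in bases covered by peaks, Th2 minus Th1 was 123.00 bp at Tnfrsf18 and 156.50 bp at Lag3, and KO minus WT −2.50 bp at Ctla4, 233.50 bp at Pdcd1 and −15.50 bp at Tnfrsf18. The Icos difference of differences was 3.00 with equal lists, 4.00 ranked by fold, 3.50 with the q limit and 3.50 with 5 kb.

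Leaving out 1 library at a time gave ranges of 7 to 9 lost and 0 to 1 gained in naive KO, 1 to 6 lost and 0 to 5 gained in Th1 KO, 1 to 2 lost and 4 to 8 gained in Th2 KO, 3 to 7 Th2-only and 3 to 6 Th1-only in WT, 9 to 15 Th2-only and 1 to 5 Th1-only in KO, 8 to 10 polarized-only, 10 to 11 naive-only, and 0 to 1 Th2-only and 1 to 2 Th1-only in both. These counts can only stay or rise when a library is left out, and no share over all regions is given for them. The 6 lost and 6 WT Th1-only regions came without Th1 WT replicate 2, the shortest list, the 7 WT Th2-only without Th1 WT replicate 1, the 5 gained and 5 Th1-only without Th1 KO replicate 1, and the 8 gained and 15 Th2-only without Th2 KO replicate 1. With 1 library left out at a time, Th2 minus Th1 ranged from −0.75 to 0.25 at Tnfrsf4, −0.50 to 0.25 at Tnfrsf18, −0.83 to 0.50 at Lag3 and 2.42 to 3.75 at Cd28. KO minus WT ranged from −0.08 to 1.58 at Icos, −0.67 to 0.08 at Pdcd1, −0.25 to 0.75 at Tnfrsf4 and −0.25 to 0.50 at Tnfrsf18.

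Whether replicate numbers pair cultures across groups is not stated in the labels. Deviations of same-numbered libraries correlated at 0.01 to 0.03 over 17762 genes, which gives no sign of pairing but cannot exclude it. With the replicate block the Cd28 difference between Th2 and Th1 stayed 3.25 with p = 0.125, the smallest exact permutation p that the block allows, and 0 genes passed. Depth is unknown, so a closed region cannot be told apart from one whose peak was too weak to be called.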

Other observations

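Genes of the ligands were among those whose counts separated Th2 from Th1 libraries. Tnfsf18, the gene of the GITR ligand, had 4 and 3 regions in Th2 KO and 4 and 3 in Th2 WT libraries, against 2 in each Th1 library. Cd27, which encodes a costimulatory receptor, had 4 and 4 regions in Th2 KO and 3 and 3 in Th2 WT libraries, against 2 in each Th1 library, and 7 and 8 in naive KO and 5 and 8 in naive WT libraries. Cd226, which encodes an activating receptor that shares ligands with TIGIT, had 14 to 17 regions in Th2 libraries and 10 to 13 in Th1 libraries. Each had an exact permutation p of 0.0286 and an adjusted p of 0.297. These values follow from counts without overlap, the trait by which the genes were picked. In lists of equal length all 3 overlapped between Th2 and Th1 cells.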
